A study of Homo sapiens with 6 samples.

Results

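Chromosomes 4, 13 and 18 carry the fewest protein-coding genes per megabase of the 22 human autosomes, and the anchors that HiChIP placed on them are described here. HiChIP joins DNA ends that lie close together in the nucleus, pulls down the joined fragments with an antibody, and reports pairs of regions, called anchors, together with the number of paired-end tags (PETs) that link them. A pair of linked anchors is a loop. Members were all loops of the 6 deposited lists with an end on chromosome 4, 13 or 18, and every listed loop joined anchors of the same chromosome. Anchors of the 6 lists that overlapped by at least 1 bp were merged into 30001 consensus anchors, of which 2529 lay on these chromosomes (1363 on chromosome 4, 648 on chromosome 13 and 518 on chromosome 18). The other 19 autosomes held 26968. By RefSeq's annotation, protein-coding genes per Mb outside centromeric, variable and stalk bands numbered 4.12 on chromosome 4, 3.53 on chromosome 13 and 3.63 on chromosome 18. These were the 3 lowest values of the 22 autosomes, against 7.70 over the other 19, so the description as gene-poor held.

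The libraries came from G401, an established human rhabdoid tumour cell line that lacks SMARCB1, which in other cells is part of SWI/SNF, a remodeller of chromatin. The cells had been made to express SMARCB1 stably under doxycycline control and grew in serum free of tetracycline. The labels do not say whether it was a single clone. The first group was ARID1A, a DNA-binding subunit of one form of SWI/SNF, at day 3 of 1 μg/ml doxycycline, labelled SMARCB1 +/+. The next was H3K27ac, an acetyl mark of active promoters and enhancers, at day 3 of the same treatment, also labelled SMARCB1 +/+. The last was H3K27ac at day 0 without doxycycline, labelled SMARCB1 -/-. Each group had 2 libraries, and since no label tells whether cultures were separate, a p-value here reflects spread between libraries, which may be technical. Day 3 differed from day 0 in SMARCB1, in doxycycline and in time, and these 3 cannot be told apart. ARID1A at day 0 was not analysed here.

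Gene-poor chromosomes hold long stretches with few genes, rich in A and T bases, which stain dark with Giemsa and in many cells lie towards the edge of the nucleus. Such stretches tend to be silent and to carry little H3K27ac. SWI/SNF slides and evicts nucleosomes, mostly at enhancers and promoters, and loss of SMARCB1 is the defining lesion of rhabdoid tumours. As background on the bands named below, 4p14 is known to hold a cluster of Toll-like receptor genes and RHOH. Band 18q11.2 holds GATA6, an endodermal transcription factor gene, 18q21.1 holds SMAD7, an inhibitor of TGF-beta signalling, 13q32.3 holds ZIC2, a transcription factor gene, and 4p16.2 holds MSX1, a homeobox gene. No gene annotation of the files' build, hg19, was used here, so anchors are given by band and position as the files list them, and none was assigned to a gene. The files do not state whether positions count from 0 or 1. No genome sequence of that build was used, so no anchor sequence is shown.

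On chromosomes 4, 13 and 18 there were 11426 and 11693 loops of 32930 and 34831 PETs for ARID1A, 7790 and 7991 loops of 54258 and 57819 PETs for H3K27ac at day 3, and 1941 and 1855 loops of 17994 and 14411 PETs for H3K27ac at day 0. Over all chromosomes the libraries held 253502 to 982141 PETs. Both day 0 libraries held fewer PETs than any other, and both day 3 H3K27ac libraries more, so counts of PETs were also compared after thinning every library to 253502 PETs, which leaves the submitters' choice of anchors as it was. Anchors of the libraries of a group coincided almost entirely, which means that a number of anchors has hardly any spread between replicates, and intervals on numbers of anchors cover counting error only.

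Anchors were sparser on chromosomes 4, 13 and 18 than on the other autosomes in all 3 groups. ARID1A placed 2297 anchors on them, 6.44 per Mb, against 10.4 per Mb on the other autosomes. H3K27ac at day 3 placed 1325 anchors, 3.71 per Mb against 6.85, and H3K27ac at day 0 placed 582, 1.63 per Mb against 3.47. The ratio to the other autosomes was 0.616 for ARID1A (95% Wilson interval 0.590 to 0.643), 0.542 for day 3 H3K27ac (0.512 to 0.573) and 0.470 for day 0 H3K27ac (0.432 to 0.511). The depletion was thus deepest at day 0 and shallowest for ARID1A, and the intervals did not overlap. Anchors were listed from libraries of unequal depth, and thinning keeps that listing, so the part of depth in this order was not tested. Per library, the ratio was 0.606 and 0.612 for ARID1A, 0.541 and 0.540 for day 3 H3K27ac, and 0.464 and 0.463 for day 0 H3K27ac. These values did not overlap between groups, but replicates shared almost all of their anchors, so little spread could arise within a group. A two-sided exact permutation test gave p = 0.333 for either comparison, the smallest that 2 against 2 libraries can give. For the same reason this test cannot decide whether the ratios differ beyond replicate spread, and no conclusion is drawn from it.

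Each of the 3 chromosomes ranked among the 3 lowest of the 22 autosomes for anchors per Mb in every group. Chromosome 13 was the lowest throughout, with 6.10 ARID1A anchors, 3.21 day 3 H3K27ac anchors and 1.44 day 0 H3K27ac anchors per Mb. Chromosome 18 had 6.22, 4.19 and 1.80 per Mb in the same groups, and chromosome 4 had 6.70, 3.78 and 1.66. Across the 22 autosomes, anchor density followed gene density, with a Spearman rho of 0.879 for ARID1A, 0.956 for day 3 H3K27ac and 0.937 for day 0 H3K27ac, given as a description, since chromosomes of one list share its library and its calling. Per protein-coding gene, pooled over chromosomes, the order turned for ARID1A and for day 3 H3K27ac. ARID1A had 1.67 anchors per gene on chromosomes 4, 13 and 18 against 1.36 on the other autosomes, and day 3 H3K27ac 0.962 against 0.890. Day 0 H3K27ac had 0.423 against 0.451. Chromosome 18 had 1.16 day 3 H3K27ac anchors per gene, the highest of the 22 autosomes. Chromosomes 4 and 13 had 0.918 and 0.908, below the median of 0.927 over the 22 autosomes, so for day 3 H3K27ac the turn was not shared by each chromosome.

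**Figure D1:**
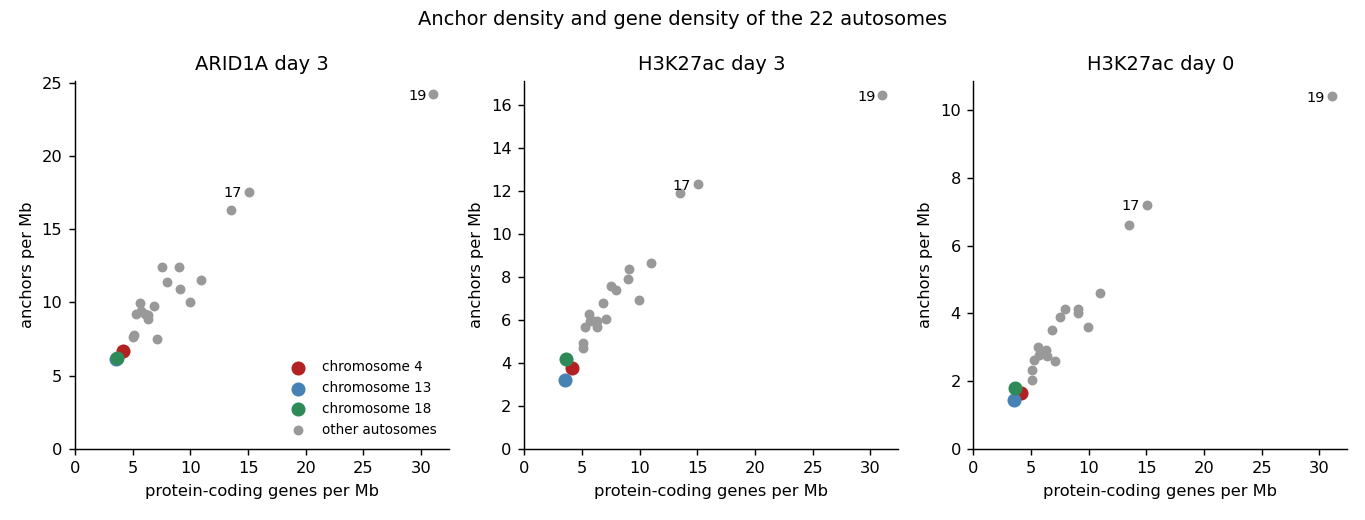
Anchors per Mb (vertical axis) against RefSeq protein-coding genes per Mb (horizontal axis) for the 22 autosomes, 1 point per chromosome, in ARID1A day 3, H3K27ac day 3 and H3K27ac day 0 libraries. Chromosomes 4, 13 and 18 sit at the lower left of each plot, between 6.10 and 6.70 ARID1A anchors per Mb, 3.21 and 4.19 day 3 H3K27ac anchors per Mb, and 1.44 and 1.80 day 0 H3K27ac anchors per Mb.

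Anchors on these chromosomes were close in width to those elsewhere. Median widths were 5835 bp on chromosomes 4, 13 and 18 against 5670 bp elsewhere for ARID1A, 5746 against 5678 bp for day 3 H3K27ac and 5907.5 against 5572 bp for day 0 H3K27ac. The median gap between neighbouring anchors was wider, 26.1 kb against 18.9 kb for ARID1A, 44.1 against 28.6 kb for day 3 H3K27ac and 88.7 against 51.4 kb for day 0 H3K27ac. Gaps longer than 1 Mb made up 46.4% of the length of chromosomes 4, 13 and 18 for ARID1A, 57.1% for day 3 H3K27ac and 72.4% for day 0 H3K27ac. On the other autosomes such gaps made up 38.2%, 46.7% and 58.5% in the same groups.

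The longest stretch without an anchor on chromosome 4 lay in nearly the same place in all groups. It ran over chr4:27133333-37392939 (10.3 Mb) for ARID1A, chr4:26867732-37662445 (10.8 Mb) for day 3 H3K27ac and chr4:26866867-37664454 (10.8 Mb) for day 0 H3K27ac, from 4p15.2 into 4p14. On chromosome 13 the longest stretch differed by group. It was 6.95 Mb for ARID1A, from 13q14.3 to 13q21.2, 7.76 Mb for day 3 H3K27ac, from 13q33.1 to 13q34, and 10.3 Mb for day 0 H3K27ac, from 13q31.1 to 13q31.3. On chromosome 18 the ARID1A stretch of 4.90 Mb spanned the centromere, the day 3 H3K27ac stretch of 6.75 Mb ran from 18q21.33 to 18q22.2, and the day 0 H3K27ac stretch of 11.1 Mb ran from 18q21.2 to 18q21.33. The last of these held anchors at day 3. Bands 18q21.31 and 18q21.32 inside it had 14 and 12 ARID1A anchors and 8 and 6 day 3 H3K27ac anchors, with 0 at day 0.

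Anchors concentrated in a few bands. By number, band 18q11.2, of 6 Mb, had the most, with 120 ARID1A anchors (20 per Mb), 78 day 3 H3K27ac anchors (13 per Mb) and 38 day 0 H3K27ac anchors (6.33 per Mb). Per Mb, 13q14.12, of 0.6 Mb, was denser for ARID1A (31.7) and day 3 H3K27ac (18.3), and 4q21.1 was denser for day 0 H3K27ac (8.08). Band 4q31.3 had 76 ARID1A, 40 day 3 and 7 day 0 anchors in 4.5 Mb. Band 4q21.1 had 50, 33 and 21 anchors in 2.6 Mb, and 13q32.3 had 37, 23 and 16 in 2.4 Mb. At the other end, 5 bands had 0 anchors in all groups: 4p15.1 (8.1 Mb), 13q21.1 (4.3 Mb), 4q22.3 (3.7 Mb), 13q33.2 (2.2 Mb) and 18p11.23 (1.4 Mb). Band 4q28.3, of 8.4 Mb, had 12 ARID1A anchors, 1 day 3 H3K27ac anchor and 0 day 0 anchors.

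Density was lower within each class of Giemsa stain as well as over the whole chromosomes. The darkest Giemsa class made up 23.3% of the length of chromosomes 4, 13 and 18 and 16.4% of that of the other autosomes. In that class ARID1A had 2.83 anchors per Mb against 4.14, day 3 H3K27ac 1.29 against 2.50, and day 0 H3K27ac 0.770 against 1.15. In Giemsa-negative bands ARID1A had 8.29 per Mb against 13.03, day 3 H3K27ac 5.10 against 8.79, and day 0 H3K27ac 2.20 against 4.51. The second darkest class came nearest to the other autosomes for ARID1A, at 5.86 per Mb against 6.57, while day 3 H3K27ac had 2.45 against 3.90 there. That class includes 4q22.1, which alone held 82 of its 291 ARID1A anchors.

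**Figure D2:**
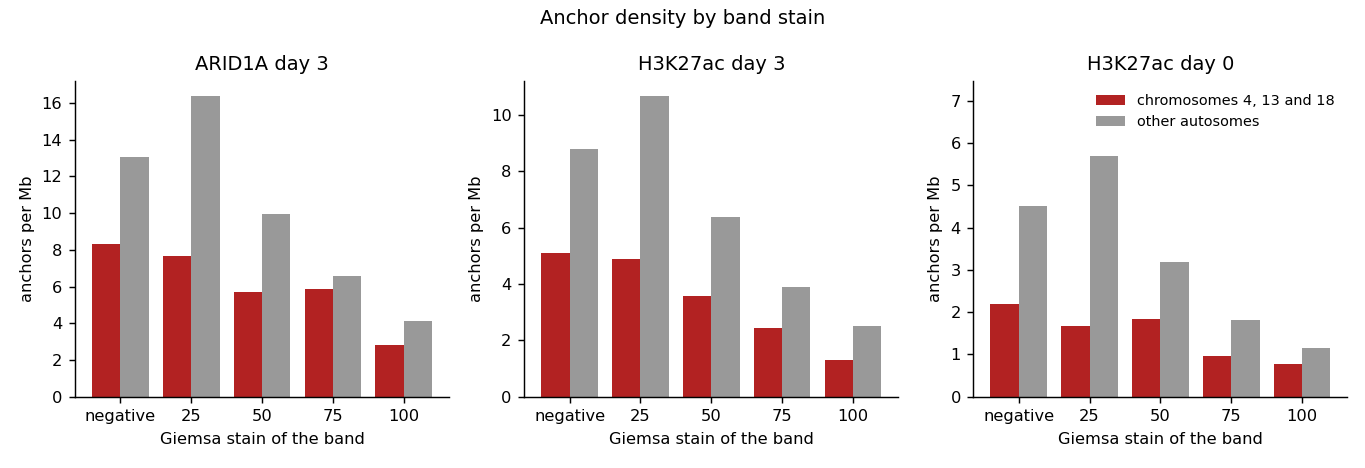
Anchors per Mb (vertical axis, from 0) by Giemsa stain of the band, from negative to the darkest class (horizontal axis), on chromosomes 4, 13 and 18 (red) and the other autosomes (grey), for ARID1A day 3, H3K27ac day 3 and H3K27ac day 0. The red bar is the lower one in every class and group, and the pair lies closest in the second darkest class for ARID1A, at 5.86 against 6.57 per Mb.

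Of the day 3 H3K27ac anchors on chromosomes 4, 13 and 18, 822 of 1325 (62.0%, 95% Wilson interval 59.4 to 64.6) overlapped no day 0 anchor, against 8947 of 15799 (56.6%, 55.9 to 57.4) on the other autosomes. The difference was 5.41 percentage points (2.65 to 8.10). It had no test over libraries, because anchors were listed almost identically in the libraries of a group and anchors are not replicates. Chromosome 18 had the highest share of the 22 autosomes, 62.8%, chromosome 4 had 62.0% and chromosome 13 had 61.2%. Chromosomes 7, 8 and 21 had shares of the same size, 61.3%, 61.4% and 62.3%. The intervals of single chromosomes were wide, and those of chromosomes 13 and 18 reached down to 55.7% and 57.3%. Anchors were listed from libraries of unequal depth, and the part of depth in this share was not tested. Few anchors went the other way: 40 of 582 day 0 anchors (6.87%, 5.09 to 9.22) had no day 3 anchor on chromosomes 4, 13 and 18, against 738 of 8000 (9.23%, 8.61 to 9.88) elsewhere.

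Day 3 H3K27ac anchors without a day 0 anchor were narrower and carried fewer PETs than the rest. Their median width on chromosomes 4, 13 and 18 was 5173 bp, against 8000 bp for those with a day 0 anchor. Their median PETs were 24 and 26 in the day 3 libraries, against 53 and 57 for those with a day 0 anchor. The other autosomes showed the same, with 5020 against 7367.5 bp and with 37 and 39 against 100 and 106 PETs. PETs whose ends both lay in anchors called at day 0 made up 54.2% ± 0.584 of day 3 PETs on chromosomes 4, 13 and 18 and 53.9% ± 0.292 on the other autosomes (SD, n = 2 each). PETs with neither end in such an anchor made up 10.2% ± 0.210 against 8.88% ± 0.133. The share with both ends was 59.4% ± 0.0699 on chromosome 13 and 51.2% ± 0.694 on chromosome 18.

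The strongest day 3 anchors without a day 0 anchor clustered in 4q21.1. The anchor at chr4:77402458-77427945 had 452 and 490 PETs at day 3 and 81 and 95 with ARID1A, that at chr4:77662830-77687208 had 348 and 374 at day 3 and 89 and 93 with ARID1A, and that at chr4:77429779-77435006 had 291 and 320 at day 3 and no ARID1A anchor. The next, at chr18:3400246-3415435 in 18p11.31, had 259 and 311 PETs at day 3 and 75 and 87 with ARID1A. No fold is given where a group lists no anchor, since nothing was measured there. PETs in this paragraph are raw counts, not scaled for the unequal depth of the libraries. The strongest day 0 anchor without a day 3 anchor was at chr18:47040045-47102900 in 18q21.1, with 643 and 549 PETs at day 0. It overlapped an ARID1A anchor of day 3 with 242 and 275 PETs. The anchor at chr13:63953426-64014732 in 13q21.31 had 435 and 288 PETs at day 0 and also overlapped an ARID1A anchor of day 3, with 287 and 305 PETs. Those at chr4:166574128-166600998 in 4q32.3 (481 and 398 PETs) and chr4:175116890-175151701 in 4q34.1 (237 and 194 PETs) had neither a day 3 H3K27ac anchor nor an ARID1A anchor.

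ARID1A anchors without a day 3 H3K27ac anchor numbered 1277 of 2297 (55.6%, 53.6 to 57.6) on chromosomes 4, 13 and 18, against 12018 of 24080 (49.9%, 49.3 to 50.5) on the other autosomes, a difference of 5.69 percentage points (3.55 to 7.80). The 3 chromosomes were not alike. Chromosome 13 had the highest share of the 22 autosomes, 60.3% (56.3 to 64.2), and chromosome 4 the next, 56.3% (53.6 to 59.0). Chromosome 18 had 47.7% (43.2 to 52.3), the seventh lowest. Requiring a reciprocal overlap of 50% raised the shares and brought the difference to 2.82 points (0.815 to 4.76). Setting ARID1A anchors against H3K27ac at either time left 1256 of 2297 (54.7%) without the mark, against 11690 of 24080 (48.5%).

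ARID1A anchors without H3K27ac at either time were the weaker ones, with a median of 11 and 12 PETs in the ARID1A libraries against 24 and 25 for those with a day 3 H3K27ac anchor. The other autosomes showed the same, with 15 and 16 against 27 and 29 PETs. Some of these anchors on chromosomes 4, 13 and 18 were strong. The anchor at chr4:174155868-174182743 in 4q34.1 had 183 and 217 ARID1A PETs over 26875 bp, that at chr4:39940774-39961350 in 4p14 had 175 and 180, that at chr4:166476573-166489429 in 4q32.3 had 121 and 144, and that at chr13:100681228-100705439 in 13q32.3 had 130 and 121. All 4 lists of H3K27ac loops had no anchor there. By PETs, 43.7% ± 0.461 of ARID1A PETs on chromosomes 4, 13 and 18 joined ends that both carried a day 3 H3K27ac anchor, against 45.9% ± 0.134 on the other autosomes (SD, n = 2 each). Chromosome 13 had 35.5% ± 0.203 and chromosome 18 had 49.5% ± 1.03.

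**Figure D3:**
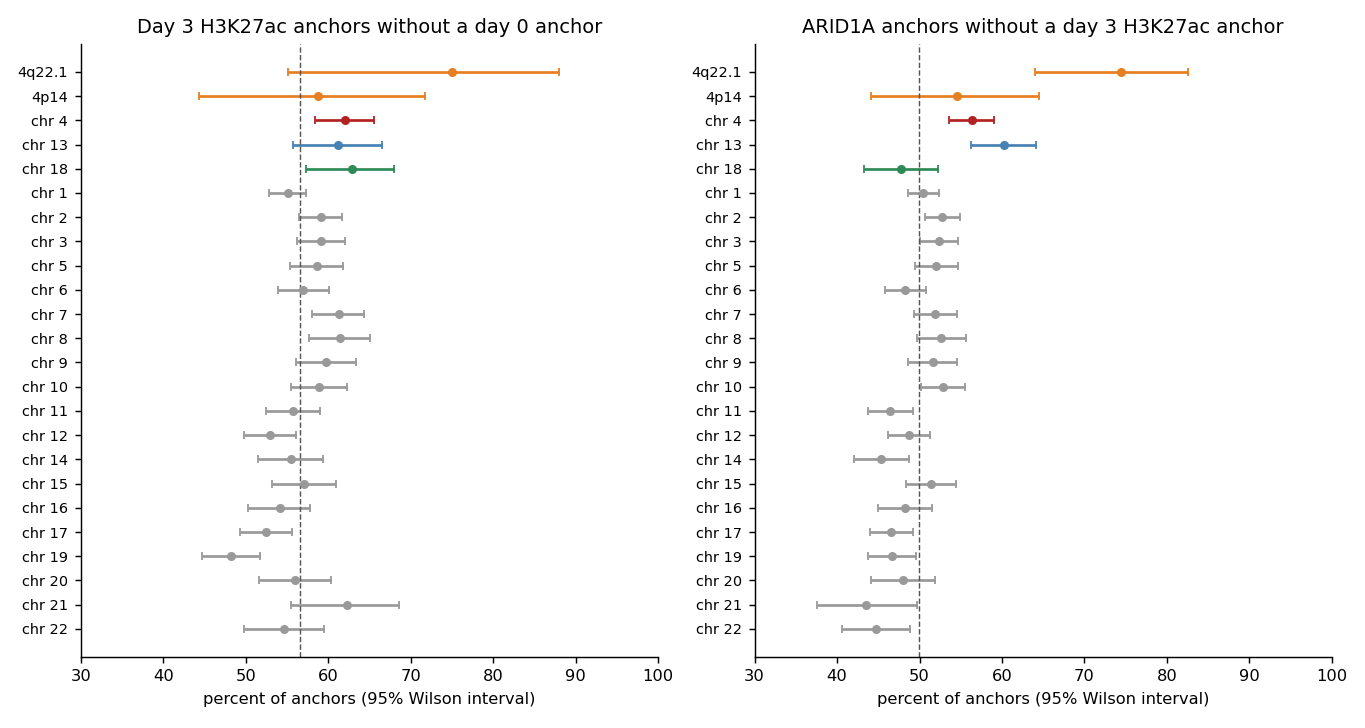
Percent of day 3 H3K27ac anchors without a day 0 anchor (left) and of ARID1A anchors without a day 3 H3K27ac anchor (right), with 95% Wilson intervals, for 4q22.1, 4p14, chromosomes 4, 13 and 18 and the other 19 autosomes, and a dashed line at the pooled value of the other autosomes (56.6% and 49.9%). Chromosomes 4, 13 and 18 lie at 61.2% to 62.8% on the left, while on the right chromosomes 4 and 13 lie at 56.3% and 60.3% and chromosome 18 at 47.7%.

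Chromosomes 4, 13 and 18 took 7.59% and 7.47% of the autosomal PETs for ARID1A, 5.87% and 5.92% for H3K27ac at day 3 and 5.98% and 5.70% for H3K27ac at day 0. The ARID1A libraries stood above both H3K27ac groups, and the day 3 and day 0 H3K27ac libraries overlapped. The difference of ARID1A to day 3 H3K27ac was 1.64 percentage points, with an exact two-sided permutation p of 0.333. Chromosome 4 accounted for most of it, with 4.49% ± 0.0497 of autosomal PETs for ARID1A against 3.11% ± 0.0338 for day 3 H3K27ac (SD, n = 2 each). Chromosome 13 had 1.42% ± 0.0158 against 1.10% ± 0.00355, and chromosome 18 had 1.62% ± 0.0162 against 1.69% ± 0.00242.

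Each anchor on chromosomes 4, 13 and 18 was linked to fewer others within the range of spans listed. Over all chromosomes, listed loops of each library spanned from 5 kb to nearly 2000 kb. Contacts outside that range do not enter the partners, loops and spans given here. The mean number of partners was 10.3 ± 0.0904 for ARID1A against 12.5 ± 0.355 on the other autosomes, 12.0 ± 0.216 against 19.4 ± 0.0148 for day 3 H3K27ac, and 6.67 ± 0.189 against 10.9 ± 0.410 for day 0 H3K27ac (SD, n = 2 each). The links that were listed held more PETs, with 7.10 ± 0.191 PETs per loop against 5.85 ± 0.228 for day 3 H3K27ac and 8.52 ± 1.06 against 6.004 ± 0.482 for day 0 H3K27ac. For ARID1A the values were 2.93 ± 0.0684 against 2.80 ± 0.0620. Depth moved the sizes of these differences: after thinning, day 3 H3K27ac differed from the other autosomes by 0.493 PETs per loop, against 1.254 as deposited, and by -3.60 partners per anchor, against -7.46 as deposited. Loops over 1 Mb were rarer, at 8.60% ± 0.477 against 10.1% ± 0.295 of ARID1A loops, 16.1% ± 0.175 against 21.4% ± 0.144 of day 3 H3K27ac loops, and 11.1% ± 0.0528 against 17.5% ± 0.495 of day 0 H3K27ac loops.

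The distance that contacts spanned, weighted by PETs, differed little from the other autosomes. The PET-weighted median was 89.1 ± 0.812 kb against 82.7 ± 0.289 kb for ARID1A, 101.1 ± 0.626 against 100.6 ± 1.08 kb for day 3 H3K27ac, and 73.2 ± 0.759 against 77.9 ± 1.94 kb for day 0 H3K27ac (SD, n = 2 each). Differences to the other autosomes were 6.09 and 6.83 kb for ARID1A, -0.757 and 1.66 kb for day 3 H3K27ac, and -3.80 and -5.47 kb for day 0 H3K27ac. The libraries of the groups did not overlap, and an exact two-sided permutation test gave p = 0.333 for ARID1A against day 3 H3K27ac and for day 3 against day 0 H3K27ac. Taken over loops without weights, the difference in median span to the other autosomes was -3.27 kb for ARID1A, -86.4 kb for day 3 H3K27ac and -77.7 kb for day 0 H3K27ac. After thinning it was 0.863, -42.6 and -73.1 kb in the same groups. For ARID1A the thinned libraries gave 1.86 and -0.137 kb, so the sign of its difference was not settled. Chromosome 13 had the longest PET-weighted span of the 22 autosomes for ARID1A, 99.6 kb in each library, and for day 3 H3K27ac, 117.3 and 123.7 kb. Chromosome 18 had 78.2 and 79.8 kb for ARID1A and 100.7 and 99.0 kb for day 3 H3K27ac.

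PETs at anchors called in both groups were compared with edgeR's quasi-likelihood test fitted over all chromosomes, summing only PETs of loops whose ends were called in both groups. Loops with both ends inside 1 consensus anchor were left out. Over all chromosomes they held 13.7% and 13.3% of day 0 PETs, 6.30% and 6.26% of day 3 H3K27ac PETs, and 3.55% and 3.53% of ARID1A PETs. The part of this unequal loss in the folds was not tested on its own. Calls needed a Benjamini-Hochberg adjusted p under 0.05. Levels below are in CPM. Unless another scaling is named, those summed PETs were scaled by the PETs of the regions tested in that comparison, not by all PETs of the library. CPM of different comparisons, or of anchors and loops, are thus not on the same scale. Between day 3 and day 0 H3K27ac, 477 consensus anchors of chromosomes 4, 13 and 18 were called at both times, and 368 passed the minimum of 10 PETs in 2 libraries. Of these, 67 were higher at day 3 (18.2%) and 51 lower (13.9%), where 20.7% of all tested anchors were called higher and 18.8% lower. The median log2 fold change was 0.02 on chromosomes 4, 13 and 18 and -0.01 on the other autosomes, so no shift of these chromosomes as a whole was seen. Scaling by the total PETs of each library in place of TMM turned the split to 26 higher and 158 lower. Under either scaling the medians of the 2 sets of chromosomes lay 0.03 apart. Leaving out 1 library lowered the 118 calls to between 74 and 92, the fewest without day 0 replicate 1, and DESeq2 called 50.

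The 3 chromosomes differed among themselves. Chromosome 4 had 47 anchors higher and 21 lower of 201 (median log2 fold change 0.13), chromosome 13 had 9 higher and 18 lower of 74 (median -0.21, the lowest of the 22 autosomes), and chromosome 18 had 11 higher and 12 lower of 93 (median 0.05). The difference between chromosomes was not tested. Among loops, 731 were tested, and 46 were higher (6.29%) and 38 lower (5.20%) at day 3, where 8.35% of all tested loops were called higher and 6.7% lower. Chromosome 4 gave 37 of the 46 higher loops, with 17 lower, of 370. Without 4q22.1 and 4p14 it had 21 higher and 17 lower of 290 loops, and 34 higher and 21 lower of 180 anchors. Thinned to equal depth, 7 loops were called in all.

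The anchors with the smallest p among those higher at day 3 all lay on chromosome 4, 5 of the 8 in 4p14. The first, at chr4:40595431-40693467, had 1012 and 1044 PETs at day 3 against 146 and 131 at day 0, that is 2178 and 2109 CPM against 683 and 724 CPM. Its log2 fold change was 1.61 ± 0.09 (SE), with an edgeR adjusted p of 9.43e-43. Its neighbour at chr4:40546586-40592882 had 1832 and 1779 CPM at day 3 against 706 and 696 CPM at day 0, a log2 fold change of 1.37 ± 0.09. The loop that joins the pair had 577 and 593 PETs at day 3 against 75 and 69 at day 0, a log2 fold change of 1.71 ± 0.13. In 4q21.1, the anchor at chr4:77446214-77477518 had 1356 and 1240 CPM against 505 and 376 CPM, a log2 fold change of 1.54 ± 0.11. In 4p16.3, the adjoining anchors at chr4:1847821-1862006 and chr4:1863808-1884341 had log2 fold changes of 1.86 ± 0.22 and 1.58 ± 0.21. The 8 were 1.90-fold to 3.63-fold higher at day 3, and were chosen among anchors whose libraries did not overlap. One of them, chr4:40234112-40268189 in 4p14, had a log2 fold change of 1.01 as reported and of -0.17 where shared anchors needed a reciprocal overlap of 50%. All 8 were also 1.64 to 4.14 times wider at day 3 than at day 0.

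Anchors lower at day 3 were changed by less, 1.32-fold to 2.76-fold over the 8 with the smallest p, and 4 of the 8 were wider and 4 narrower at day 3. A pair in 4q21.23 led. The anchor at chr4:86740847-86752830 had 66.7 and 64.6 CPM at day 3 against 173.1 and 193.4 CPM at day 0 (log2 fold change -1.47 ± 0.25). Its partner at chr4:86679284-86707265 had 124.8 and 123.2 CPM against 257.3 and 281.9 CPM (-1.11 ± 0.20). The loop between them had 18 and 15 PETs at day 3 against 27 and 24 at day 0, a log2 fold change of -1.93 ± 0.32. Anchors lower in relative level could still hold more PETs in the deeper day 3 libraries. At chr13:100548872-100567834 in 13q32.3, 667 and 766 PETs at day 3 stood against 428 and 351 at day 0, which is 1436 and 1547 CPM against 2002 and 1940 CPM, a log2 fold change of -0.40 ± 0.08. The others lay in 13q31.3, 4q28.1, 4q34.1 (a pair) and 13q32.3, with log2 fold changes of -0.54 to -0.92.

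For ARID1A over H3K27ac at day 3, 963 consensus anchors of chromosomes 4, 13 and 18 were called in both, and 779 were tested. ARID1A was higher at 327 (42.0%) and lower at 141 (18.1%), where 31.5% of all tested anchors were called higher and 32.5% lower. The median log2 fold change was 0.35, against -0.08 on the other autosomes. The 2 antibodies pull down different amounts, so a fold here is relative to the rest of each library. Scaled to library totals, 197 were higher and 292 lower, and the medians were -0.26 and -0.69, again 0.43 apart. Chromosome 4 had the highest median of the 22 autosomes, 0.53, and the largest share of anchors called higher, 199 of 416, with 66 lower. Without 4q22.1 and 4p14 it had 170 higher and 60 lower of 365, with a median of 0.49. Chromosome 13 had 54 higher and 29 lower of 161 (median 0.19), and chromosome 18 had 74 higher and 46 lower of 202 (median 0.14). Among 1595 tested loops, ARID1A was higher at 305 (19.1%) and lower at 196 (12.3%), where 14.5% of all tested loops were called higher and 18.8% lower. These 501 loop calls fell to 239 without ARID1A replicate 1, 237 without ARID1A replicate 2, 311 without day 3 H3K27ac replicate 1 and 290 without day 3 H3K27ac replicate 2.

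The balance differed between Giemsa classes, and on chromosomes 4, 13 and 18 it did not follow their order throughout. In negative bands of chromosomes 4, 13 and 18, ARID1A was higher at 170 and lower at 104 of 475 anchors (median log2 fold change 0.19). In the palest stained class it was higher at 38 and lower at 14 of 86 (0.42), and in the next higher at 28 and lower at 18 of 70 (0.13). In the second darkest class it was higher at 48 and lower at 2 of 69 (1.41), and in the darkest higher at 36 and lower at 2 of 68 (0.58). On the other autosomes the medians of the 5 classes rose with the stain, from negative to darkest -0.22, -0.21, 0.11, 0.29 and 0.50. The share called higher in the darkest class was 52.9% on chromosomes 4, 13 and 18, close to the 48.3% on the other autosomes, and in the second darkest class it was 69.6% against 41.6%. Band 4q22.1 supplied 12 of the 48 in the second darkest class.

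**Figure D4:**
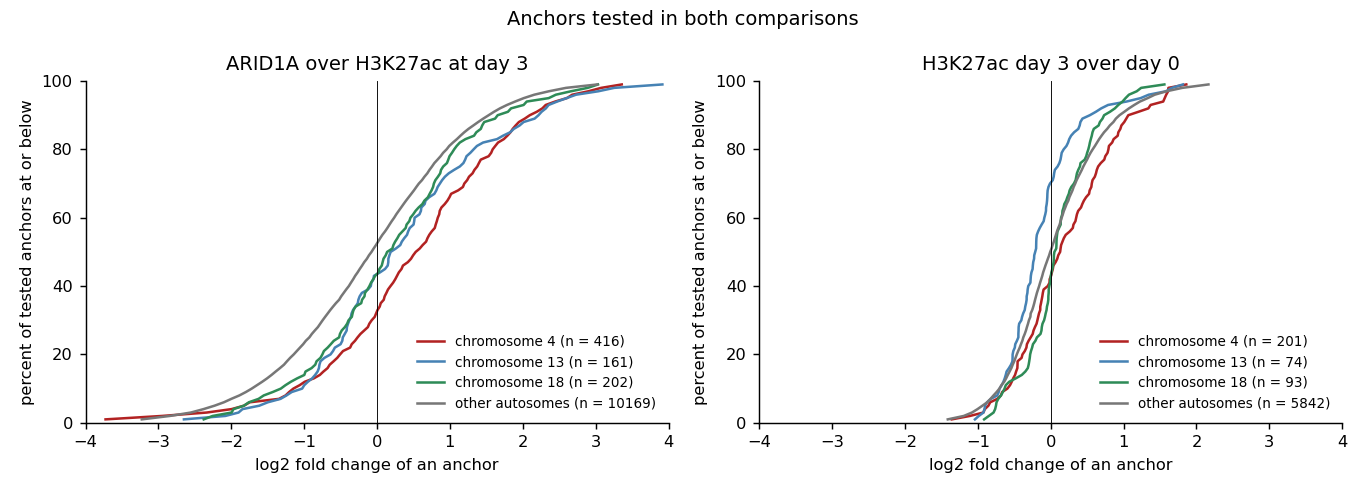
Cumulative percent of tested anchors (vertical axis) by log2 fold change (horizontal axis) on chromosomes 4, 13 and 18 and the other autosomes, for ARID1A over H3K27ac at day 3 (left) and H3K27ac day 3 over day 0 (right). On the left chromosome 4 lies to the right of the other autosomes, with medians of 0.53 and -0.08. On the right chromosome 13 lies to the left, with medians of -0.21 and -0.01.

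The 8 anchors with the smallest p among those higher with ARID1A lay in 4q22.1, 4q32.3, 4q25, 4q28.1 and 18q11.2. At chr4:90635813-90664308 in 4q22.1, the ARID1A libraries had 180 and 189 PETs against 39 and 29 in the day 3 H3K27ac libraries, that is 948 and 921 CPM against 61.0 and 42.8 CPM. The log2 fold change was 4.13 ± 0.16 (SE), with an edgeR adjusted p of 4.91e-146. In the same band, chr4:90703982-90734364 had 705 and 678 CPM against 42.2 and 44.3 CPM (3.95 ± 0.18), and chr4:90665775-90692573 had 911 and 824 CPM against 117.3 and 134.4 CPM (2.74 ± 0.14). The loop between the first and the last of these 3 anchors had 72 and 76 ARID1A PETs against 6 and 7 H3K27ac PETs, a log2 fold change of 5.12 ± 0.28. In 4q32.3, chr4:166677991-166711009 had 906 and 863 CPM against 82.9 and 81.2 CPM (3.38 ± 0.15), and in 18q11.2, chr18:20417861-20442781 had 669 and 604 CPM against 61.0 and 54.6 CPM (3.41 ± 0.17). All 8 anchors of this kind were 5.08-fold to 17.5-fold higher with ARID1A, and all 8 were 1.63 to 5.49 times wider in the ARID1A list. The part of anchor width in the folds was not tested for these anchors one by one. Among anchors whose widths differed by less than 1.5 times, ARID1A was higher at 126 and lower at 44 of 414 on chromosomes 4, 13 and 18, against 1197 higher and 1279 lower of 5565 on the other autosomes.

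The 8 anchors with the smallest p among those lower with ARID1A lay in 13q32.3, 18q21.1, 4p16.2 and 4q21.1. At chr13:100611865-100652380 in 13q32.3, the ARID1A libraries had 122 and 148 PETs against 1510 and 1626 in the day 3 H3K27ac libraries, which is 642 and 722 CPM against 2362 and 2401 CPM, a log2 fold change of -1.84 ± 0.08 with an edgeR adjusted p of 4.82e-111. In 18q21.1, the adjoining anchors at chr18:46445488-46492235 and chr18:46495091-46550992 had log2 fold changes of -1.33 ± 0.09 and -1.27 ± 0.09. Their shared loop had 73 and 105 ARID1A PETs against 684 and 741 H3K27ac PETs, a log2 fold change of -1.35 ± 0.14. In 4p16.2, chr4:4851147-4886141 had 558 and 531 CPM against 1264 and 1407 CPM (-1.34 ± 0.10). The largest change of the 8 was at chr4:77606907-77620328 in 4q21.1, with 11 and 14 ARID1A PETs against 254 and 266 H3K27ac PETs (-2.68 ± 0.22), where the ARID1A anchor was 3293 bp wide and the H3K27ac anchor 13421 bp. Only 1 of the 8 was wider in the ARID1A list, with width ratios, ARID1A over H3K27ac, of 0.245 to 1.18. The loop between the 2 anchors of 4p16.3 that were higher at day 3 had 1 and 1 ARID1A PETs against 126 and 121 H3K27ac PETs. The ratio of CPM, H3K27ac over ARID1A, was 36.7 with an exact 95% counting interval of 10.0 to 304.4. The ends of this loop were 8163 and 2328 bp wide with ARID1A against 11799 and 19941 bp with H3K27ac. The part of anchor width in these changes was not tested region by region.

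Bands 4q22.1 (chr4:88000000-93700000) and 4p14 (chr4:35800000-41200000) were taken apart because they held many ARID1A anchors, which was known from earlier results of these data, so their values are a description. In 4q22.1, ARID1A had 82 anchors (14.4 per Mb, 1.38 times the density of the other autosomes), day 3 H3K27ac 24 (4.21 per Mb, 0.614 times) and day 0 H3K27ac 7 (1.23 per Mb, 0.354 times). In 4p14, ARID1A had 88 anchors (16.3 per Mb, 1.56 times), day 3 H3K27ac 46 (8.52 per Mb, 1.24 times) and day 0 H3K27ac 23 (4.26 per Mb, 1.23 times). So 4p14 exceeded the other autosomes in every group, while 4q22.1 did so with ARID1A and lay below them with H3K27ac at both times. Leaving both bands out lowered the density ratio of chromosomes 4, 13 and 18 to 0.589 for ARID1A, 0.530 for day 3 H3K27ac and 0.460 for day 0 H3K27ac.

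In 4q22.1, 61 of 82 ARID1A anchors (74.4%, 64.0 to 82.6) overlapped no H3K27ac anchor at day 3, and the same 61 overlapped none at day 0. Of its 24 day 3 H3K27ac anchors, 18 had no day 0 anchor (75%, 55.1 to 88.0) and 1 had no ARID1A anchor. Loops with an end in the band held 1821 and 1829 PETs for ARID1A, 424 and 489 for day 3 H3K27ac and 184 and 145 for day 0 H3K27ac. As a share of autosomal PETs this was 0.406% ± 0.0193 for ARID1A, 0.0480% ± 0.00296 for day 3 H3K27ac and 0.0593% ± 0.00270 for day 0 H3K27ac (SD, n = 2 each). Of 17 anchors tested, ARID1A was higher than day 3 H3K27ac at 12 and lower at 0, with 5 not called. Over all tested anchors, 31.5% were called higher with ARID1A and 32.5% lower. The leading anchor was at chr4:90787900-90839395, with 369 and 393 ARID1A PETs, 235 and 265 day 3 H3K27ac PETs and 69 and 60 day 0 H3K27ac PETs. The anchor at chr4:90752982-90763036, nearby, had 66 and 65 ARID1A PETs against 136 and 171 PETs for H3K27ac at day 3 and 69 and 49 at day 0. For both anchors, CPM was scaled to all PETs of each library between different consensus anchors. The leading anchor had 879 and 871 CPM for ARID1A, 270 and 288 at day 3 and 265 and 273 at day 0. Its day 3 and day 0 H3K27ac libraries thus overlapped. The nearby anchor had 157 and 144 CPM for ARID1A, 156 and 186 at day 3 and 265 and 223 at day 0. There ARID1A and day 3 H3K27ac overlapped, and day 0 H3K27ac lay above both.

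In 4p14, 48 of 88 ARID1A anchors (54.5%, 44.2 to 64.5) had no day 3 H3K27ac anchor and 27 of 46 day 3 H3K27ac anchors (58.7%, 44.3 to 71.7) had no day 0 anchor, intervals that include the values of the other autosomes. Loops with an end in the band held 2736 and 2840 PETs for ARID1A, 3783 and 3954 for day 3 H3K27ac and 613 and 456 for day 0 H3K27ac. Its share of autosomal PETs was 0.620% ± 0.0150 for ARID1A, 0.407% ± 0.00316 for day 3 H3K27ac and 0.192% ± 0.0166 for day 0 H3K27ac (SD, n = 2 each). Of 16 anchors tested between day 3 and day 0, 12 were higher at day 3 and 0 lower, with a median log2 fold change of 0.86. Over all tested anchors, 20.7% were called higher and 18.8% lower. Of 70 loops, 14 were higher and 0 lower, where 8.35% of all tested loops were called higher and 6.7% lower. Against H3K27ac at day 3, ARID1A was higher at 17 and lower at 6 of 34 anchors. Over all anchors tested in that comparison, 31.5% were called higher and 32.5% lower. The PET-weighted median span of loops with an end in the band was 92.7 and 93.0 kb for ARID1A, 109.9 and 119.2 kb for day 3 H3K27ac and 137.3 kb in each day 0 library. The leading pair of anchors, joined by the loop of smallest p among the named loops higher at day 3, has been given above. The next, at chr4:40181621-40212571, had 120 and 111 ARID1A PETs, 416 and 457 PETs for H3K27ac at day 3 and 149 and 92 at day 0, counting all of its loops. Scaled as for the leading anchors of 4q22.1, this was 286 and 246 CPM for ARID1A, 478 and 496 CPM at day 3 and 572 and 419 CPM at day 0. The day 3 and day 0 H3K27ac libraries thus overlapped once depth was scaled.

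**Figure D5:**
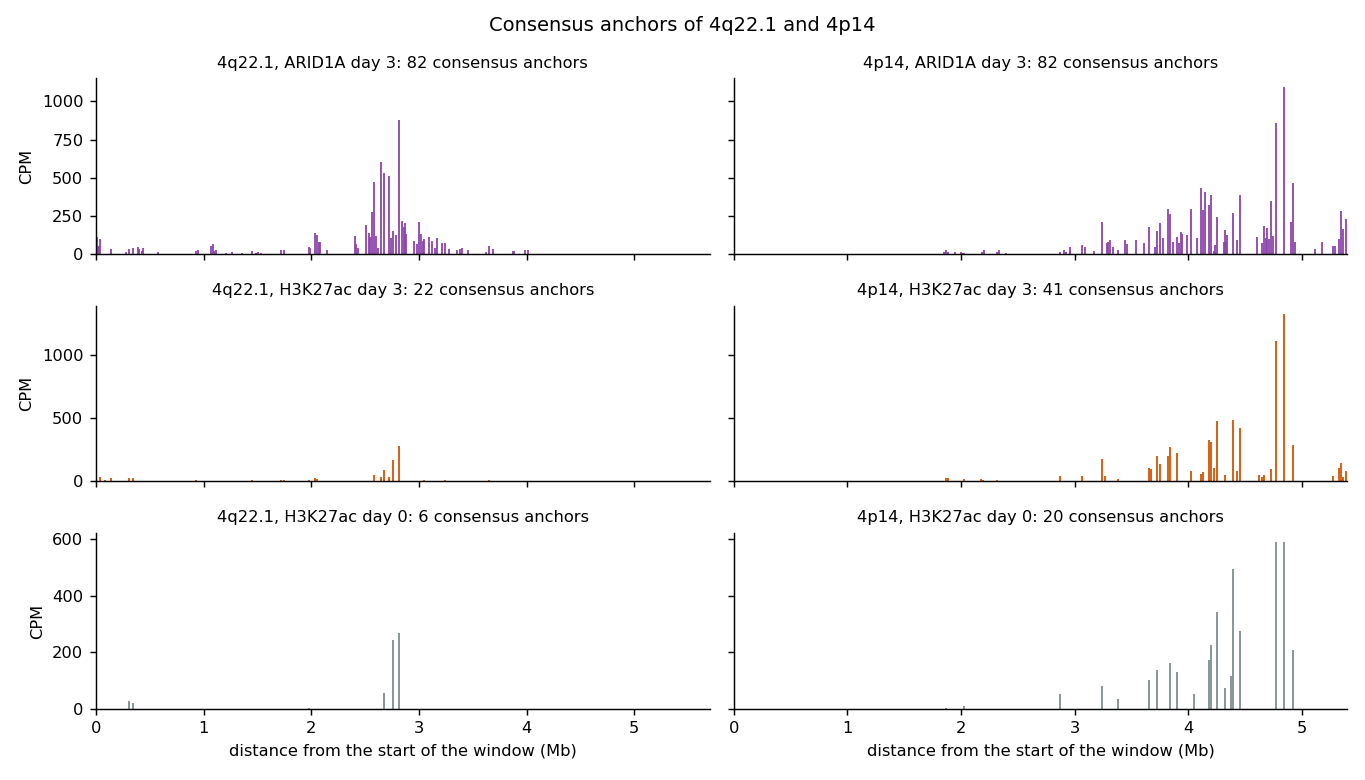
CPM of PETs (vertical axis, from 0, mean of 2 libraries) of each consensus anchor in 4q22.1 (left) and 4p14 (right) by distance from the start of the band in Mb (horizontal axis), for ARID1A day 3, H3K27ac day 3 and H3K27ac day 0 from top to bottom, with each row of plots sharing its vertical scale. CPM here was scaled to all PETs of each library between different consensus anchors, so it differs from the CPM given with the edgeR tests. Tall ARID1A anchors crowd the middle of 4q22.1, where the band has 22 day 3 and 6 day 0 H3K27ac consensus anchors against 82 for ARID1A, while in 4p14 all groups fill the later stretch of the band after an empty start.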

How the data were processed

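HiChIP libraries of 6 samples were grouped by their titles, with 2 per group. Per the submitters' processing notes, HiC-Pro, Bowtie2 and the hg19 build were used; the sources used here give no settings and name no caller of anchors or loops. The deposited lists give 2 anchors per loop, a raw PET count and a value from 0 to 1. Columns carry no names, and the deposited value may be a p-value or q-value; it served as a threshold of 0.01 in an alternative. Anchors were merged in pandas 2.3.3 and numpy 2.4.6 under Python 3.11.15. An anchor counts as absent where no listed anchor overlaps it by 1 bp. Bands come from circlize 0.4.16 and gene numbers per chromosome from RefSeq's GRCh38.p14 table, of which no coordinate was used. PET counts were tested with edgeR 4.0.16 (R 4.3.3) on anchors with 10 or more PETs, or loops with 4 or more, in at least 2 libraries and called in both groups. Intervals (95% Wilson) and exact permutation tests used scipy 1.17.1. The test was checked on simulated counts with known changes. For day 3 over day 0, log2 changes of 1 and 2 were recovered at 78% and 97% of changed anchors. For ARID1A over H3K27ac the shares were 57% and 89%. Among changed loops, recovery was 20% and 50% for day 3 over day 0 and 7% and 27% for ARID1A over H3K27ac. Many loop changes of these sizes were thus missed in the simulation. Named regions are the 8 anchors and 3 loops of smallest p in each direction of each comparison, among calls without overlap between groups; the 4 strongest anchors of 4q22.1 and 4p14 and of each unmatched class; and the longest stretch per chromosome and group. Chromosomes, bands and rules were chosen with earlier results of these data known. Alternatives were other scalings, filters, overlaps, depths, DESeq2 1.42.0 and leaving out each library. Planned lists of genes were not run, because no hg19 annotation was used here.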

Additional observations from a re-analysis of the deposited data

How the results depend on the processing

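The density ratio stayed below 1 in every setting. Keeping loops with a deposited value of 0.01 or less gave 0.589 for ARID1A, 0.485 for day 3 H3K27ac and 0.394 for day 0 H3K27ac, and leaving out 4q22.1 and 4p14 gave 0.589 for ARID1A; leaving out a library gave 0.606 to 0.612, 0.540 to 0.541 and 0.463 to 0.464 in the same group order. The span difference to other autosomes was the least stable. For ARID1A it was 5.50 kb over loops of 2 or more PETs, 22.3 kb at deposited values of 0.01 or less, 4.97 kb without both bands, -3.27 kb as a median over loops and 5.10 kb over consensus loops. For day 3 H3K27ac these settings, both bands kept, gave 4.37, 9.19, -86.4 and -2.99 kb, and for day 0 H3K27ac -0.752, 2.16, -77.7 and 2.40 kb. Thinned, the median over loops gave 0.863, -42.6 and -73.1 kb for ARID1A, day 3 and day 0. Leaving out a library gave 6.09 to 6.83 kb for ARID1A, -0.757 to 1.66 kb for day 3 H3K27ac and -5.47 to -3.80 kb for day 0 H3K27ac. A reciprocal overlap of 50% took the excess of ARID1A anchors without H3K27ac to 2.82 points. The cause of these shifts was not tested.

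Counts of calls depended on the setting, with 118 anchors and 84 loops for day 3 over day 0 and 468 anchors and 501 loops for ARID1A over H3K27ac as reported. Library totals gave 184 and 155 for day 3 over day 0. DESeq2 gave 50 and 17, and 258 loops for ARID1A. Anchors of similar width gave 43 and 11 for day 3, and 170 and 107 for ARID1A, with fewer regions tested. Reciprocal overlap gave 58 and 31, and 213 and 141. Thinning gave 69 and 7, and 292 and 103. All consensus regions, absent ones entered as 0, gave 842 and 1433, and 1465 and 1885. With no filter, edgeR called 0 of 6484 ARID1A loops, with 904 at an unadjusted p under 0.05. Leaving out a library gave 74 to 92 and 34 to 60 for day 3, and 351 to 384 and 237 to 311 for ARID1A; day 3 loops numbered 37 without day 3 replicate 2, 34 without day 0 replicate 1 and 42 without day 0 replicate 2.

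With reciprocal overlap, the day 3 over day 0 log2 fold change was -0.17 for the anchor at chr4:40234112-40268189 and 0.040 for the loop between chr4:26210205-26247695 and chr4:26272981-26308134 in 4p15.2. All 44 named regions kept direction and call under library totals, DESeq2 and all consensus regions, and in 174 fits without a library. Calls were lost at 7 of 18 and turned at 2 of 18 with reciprocal overlap, and were lost at 7 of 44 with no filter, 3 of 16 at similar width and 3 of 44 after thinning. Same-numbered libraries share a number only: the replicate 1 minus replicate 2 deviations of 2 groups correlated at 0.0078 and 0.013 over anchors. The replicate block gave 116 anchors and 73 loops for day 3, and 466 and 392 for ARID1A, and changed no call of the 44.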
